A study of Mus musculus with 10 samples.

Results

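The cytosolic ribosomal protein genes were examined in lactating mouse mammary glands 12 h after endotoxin or saline. A row of the gene table was taken when its symbol was Rpl or Rps followed by a number, or Rplp0, Rplp1, Rplp2 or Rpsa. Processed pseudogenes with "-ps" in the symbol and the Rps6k kinases were left out. This gave 92 of the 35275 rows. Of these, 77 encode core proteins of the ribosome (3 of the stalk, 43 others of the large subunit and 31 of the small subunit). The remaining rows are 7 paralogues of core proteins (such as Rpl22l1), 7 retrocopies or pseudogenes without "-ps" in the symbol (such as Rps3a2), and Rps19bp1. The last encodes a nucleolar protein that binds RPS19 and is no ribosomal protein, although its symbol fits the rule.

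All glands came from BALB/c mice, an inbred strain, on day 3 of lactation. In each animal 1 gland of the 4th pair received 50 µL of lipopolysaccharide (LPS, the endotoxin of Gram-negative bacteria, here from Escherichia coli) at 0.4 mg/mL through the teat. The gland on the opposite side received phosphate-buffered saline (PBS), so a PBS gland lay in an animal that was also exposed to LPS. RNA-seq was available for 5 LPS and 5 PBS glands, and no gland without an injection was measured. The labels state n = 9 animals but do not tie libraries to animals, so a p-value here reflects only how much these particular glands varied. Levels are FPKM, in which a gene's reads are divided by its length and by the counted reads of the library, given as mean ± SD with n = 5 per group. Changes are LPS minus PBS on the log2(FPKM + 1) scale with their standard error, which understates the change of genes with low FPKM.

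Each ribosome holds 1 copy of nearly every one of these proteins, and their genes are among the most active in any growing cell. Their mRNAs usually begin with a C followed by a run of pyrimidines, the terminal oligopyrimidine (TOP) motif, through which mTOR signalling and the RNA-binding protein LARP1 control translation. In a lactating gland, ribosomes of the secretory epithelium make the caseins and whey proteins of milk. RNA-seq of a whole gland shows the amount of these mRNAs relative to all others, not their translation.

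The bases around the annotated start of transcription are shown for some of the members named in the results, because this is where the TOP motif lies. Each window holds 15 bases before the start and 15 from it, in RefSeq's annotation of build GRCm38.p6 (mm10), 5′ to 3′ on the gene's strand. Capitals mark the longest run of C and T that begins with C, where it has at least 5 bases.
Rplp2, chr7:141447636-141447665, plus strand: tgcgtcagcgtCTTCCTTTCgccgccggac
Rpl13a, chr7:45128731-45128760, minus strand: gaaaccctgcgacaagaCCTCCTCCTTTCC
Rpl35, chr2:39005117-39005146, minus strand: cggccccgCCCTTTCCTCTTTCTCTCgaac
Rpl38, chr11:114668565-114668594, plus strand: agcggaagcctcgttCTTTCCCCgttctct
Rps6, chr4:86857353-86857382, minus strand: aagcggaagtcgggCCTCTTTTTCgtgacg
Rps27, chr3:90213634-90213663, minus strand: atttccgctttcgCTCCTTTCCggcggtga
Rps15a, chr7:118116133-118116162, minus strand: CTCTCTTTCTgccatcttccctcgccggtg
Rplp0, chr5:115559452-115559481, plus strand: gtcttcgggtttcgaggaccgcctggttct
Rpsa, chr9:120127751-120127780, plus strand: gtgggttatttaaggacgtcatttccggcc
Rpl7l1, chr17:46782642-46782671, minus strand: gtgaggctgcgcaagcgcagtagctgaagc
The last 3 windows held no such run of 5 bases. Neither did those of Rpl41, Rpl10, Rpl5, Rpl11, Rps3, Rpl37, Rpl24, Rpl26, Rpl36al, Rps28, Rpl37rt and Rps19bp1, which are named below but not printed. The printed windows therefore do not show how common the run is among the members. Of the 92 members, 67 had a window in the RefSeq table when matched by symbol. A gene with several annotated starts was counted when any of its windows held the letters. A C followed by at least 7 bases of C or T, on the gene's strand, was found for 26 of the 67 members (38.8%). This compares with 10.8% of the 27025 genes with a window. The letters CTTTC were found in 18 of the 67 (26.9%), against 4.76% of all genes. Their reverse complement GAAAG was found in 3 of the 67 (4.48%), against 4.21% of all genes. CTTTC can lie inside the longer run, so the first 2 shares are not independent. A match shows only that these letters lie at an annotated start.

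Depth was 15734303 to 18869545 counted reads per library. The defining transcripts of secretory epithelium, the caseins and whey proteins, were present in every gland. As summed FPKM, 8 milk protein genes took 45.04% ± 5.22 of each PBS gland and 36.2% ± 4.95 of each LPS gland. The summed FPKM of 10 neutrophil markers was 705.3 to 1870.9 in PBS glands and 7369 to 14193 in LPS glands, and 5 of the 7 tested were called higher. Of 9 B and T cell markers 0 passed the filter. Their summed FPKM was 0.95 to 59.9 in PBS and 0.556 to 20.4 in LPS glands, highest in PBS gland 2 (59.9), PBS gland 4 (27.8) and LPS gland 3 (20.4). No marker of these 2 lists was at 0 in all libraries. The part of these cells in the values below was not tested.

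The transcripts of the ribosome were abundant in all 10 glands. Together the 92 rows made up 3.94% ± 0.62 of summed FPKM in PBS glands and 4.15% ± 0.55 in LPS glands. In single PBS glands the share was 3.86, 4.82, 3.57, 4.22 and 3.22%, and in single LPS glands 4.92, 4.04, 4.44, 3.87 and 3.49%. The groups overlapped, with the 2 highest shares in LPS gland 1 and PBS gland 2 and the 2 lowest in PBS gland 5 and LPS gland 5. The difference of 0.21 percentage points was smaller than either SD. It was 0.022 points without LPS gland 1, 0.0357 without PBS gland 5, 0.12 without PBS gland 3, 0.14 without LPS gland 3, 0.38 without LPS gland 5 and 0.44 without PBS gland 2. Outside the 8 milk protein genes the share was 7.18% ± 1.02 in PBS and 6.50% ± 0.63 in LPS glands, so the sign of the difference turned with the denominator. As a share of counted reads the rows held 2.44% ± 0.34 and 2.60% ± 0.43. In RNA of a whole gland, fewer cells of a type and less RNA per cell cannot be told apart.

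No ribosomal protein transcript was called different between LPS and PBS glands. A gene was tested when its FPKM was at least 1 in at least 5 libraries, which held for 87 of the 92 rows and for 11414 genes in all. With limma and a Benjamini-Hochberg adjusted p below 0.05, 0 of the 87 were called higher, against 2.63% of all tested genes, and 0 were called lower, against 0.605% (300 and 69 genes). At an unadjusted p below 0.05 there was 1 member, Rps20, against 16.5% of all tested genes (1879). Whole reads recovered from the FPKM gave 0 calls among the 87 with edgeR (2 at an unadjusted p below 0.05) and 0 with DESeq2 (3 at an unadjusted p below 0.05). Of all tested genes edgeR called 2.67% higher and 1.16% lower (3.83% in all), and DESeq2 called 4.98% and 2.73% (7.71% in all). For 0 of the 87 did the 5 LPS values lie apart from the 5 PBS values, against 4.75% of all tested genes (542), 3.53% with every LPS gland above and 1.22% with every LPS gland below. The split of calls among all genes depended on scaling: it was 300 higher and 69 lower as deposited, 254 and 115 with median-of-ratios scaling, 233 and 145 after quantile normalization, and 128 and 348 after scaling outside milk proteins. The count of members called was 0 under each of these.

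The 95% interval of the change on log2(FPKM + 1) lay within 2-fold in either direction for all 87 tested members, and within 1.5-fold for 77 of them. A pseudocount of 1 shrinks the changes of rows at a few FPKM. With a pseudocount of 0.1 all 87 intervals lay within 2-fold and 75 within 1.5-fold, and the interval of Rpl6l, a row with a mean of 1.65 FPKM, widened to -0.94 to 0.17 around a change of -0.39. With a pseudocount of 1 the lowest bound of the 87 intervals was -0.61 (Rpl6l) and the highest was 0.70 (Rps29), on the log2 scale. Fitted changes ran from -0.25 (Rpl6l) to 0.32 (Rps20), with a median of 0.08 against 0.05 for all tested genes, and 68 were positive and 19 negative. This lean depended on scaling: the members' median was 0.02 with median-of-ratios scaling, -0.01 after quantile normalization and -0.13 after scaling outside milk proteins. The last of these moved the median of all tested genes by -0.18, and relative to all genes the members' median was then 0.003, against 0.037 as deposited. Single glands also set it: the members' median was 0.005 without LPS gland 1, 0.02 without PBS gland 5, 0.04 without PBS gland 3, 0.15 without LPS gland 5 and 0.16 without PBS gland 2. Relative to all genes it was -0.056 without LPS gland 1 and -0.014 without PBS gland 3.

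**Figure D1:**
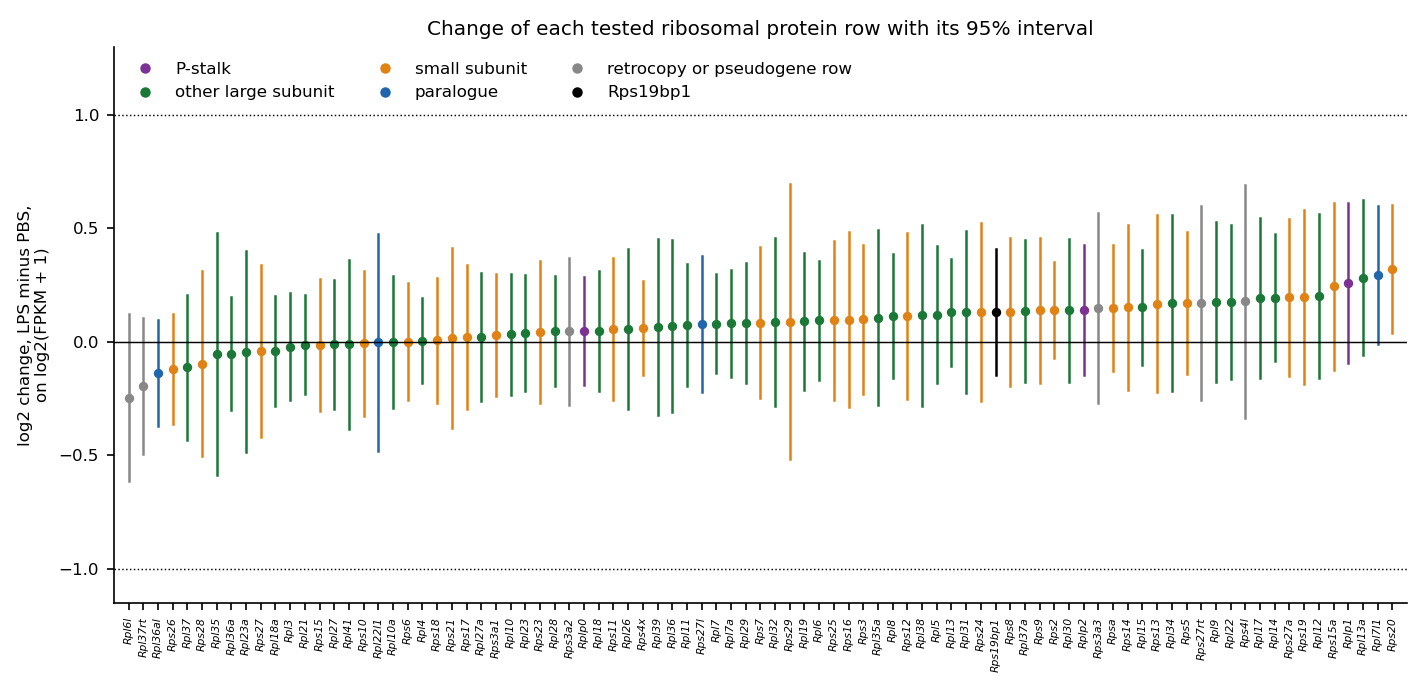
Change of each of the 87 tested rows, LPS minus PBS on log2(FPKM + 1), with its 95% interval from limma (n = 5 glands per group), ordered by size and coloured by role; dotted lines mark a 2-fold change in either direction. Every interval lies between the dotted lines, and the interval of Rps20, at the right end, is the only one that leaves out 0.

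The stalk of the large subunit, which recruits the elongation factors, is built on RPLP0 with RPLP1 and RPLP2 bound to it. Rplp0 (chr5:115559467-115563727), often used as a reference gene in quantitative PCR, had FPKM of 524.7, 541.2, 454.4, 527.4 and 430.1 in the PBS glands. In the LPS glands it had 573.5, 454.8, 581.2, 491.0 and 463.9, so the groups overlapped over most of their range. Its change was 0.05 ± 0.11 (limma adjusted p = 0.893). Rplp1 (chr9:61913284-61914542) had 659.7, 942.0, 622.9, 698.6 and 617.2 in PBS glands and 1163.1, 878.3, 811.3, 756.2 and 652.8 in LPS glands. PBS gland 2 lay above every LPS gland but gland 1, and the change of 0.26 ± 0.16 did not pass the test (limma adjusted p = 0.479). Rplp2 (chr7:141447370-141451585) had 202.9, 268.4, 210.4, 215.7 and 193.9 in PBS glands and 309.9, 249.7, 247.0, 211.9 and 193.0 in LPS glands. Here the lowest LPS gland lay just under the lowest PBS gland, with a change of 0.14 ± 0.13 (limma adjusted p = 0.674). Of the 3 stalk genes 0 were called in either direction, and all 3 changes were positive as deposited (median 0.14), against 2 of 3 after median-of-ratios or quantile scaling and 1 of 3 after scaling outside milk proteins.

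**Figure D2:**
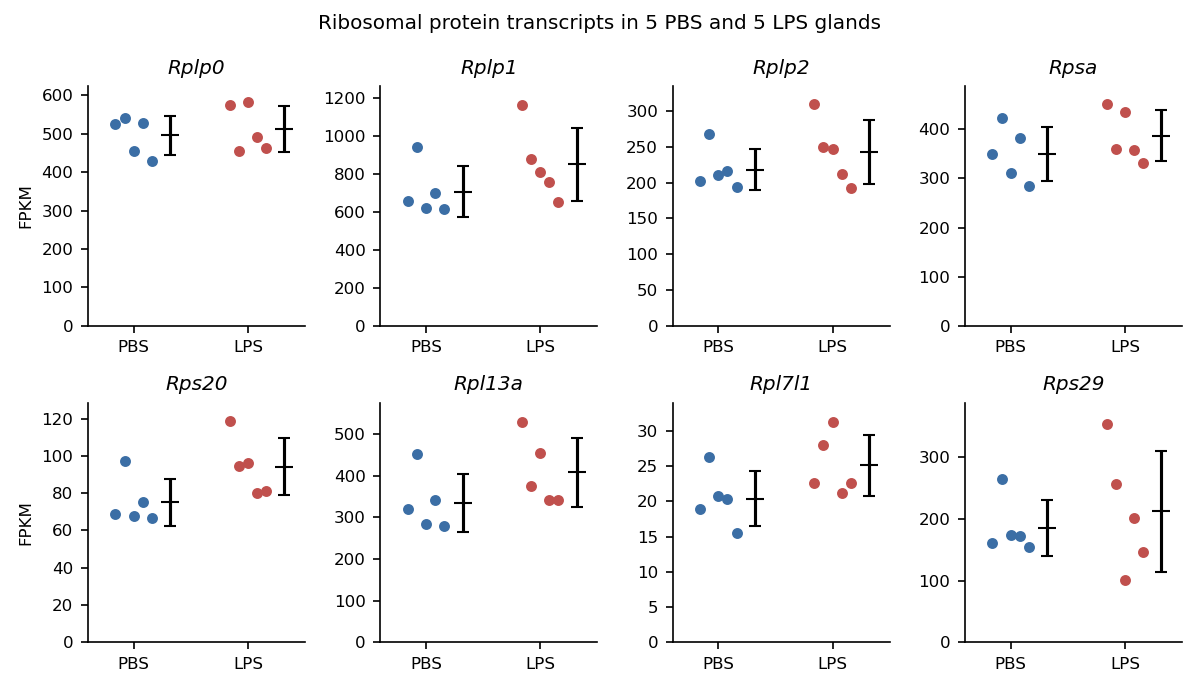
FPKM of 8 members in 5 PBS (blue) and 5 LPS (red) glands, each point 1 gland, with the mean and SD beside them; each panel has its own axis from 0. The groups overlap in every panel, and the highest PBS point is the same gland (PBS gland 2) in all 8.

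The other large subunit genes covered a wide range of levels. Rpl41, which encodes the smallest protein of the ribosome, had the highest mean of all 92 rows, 1007 FPKM. Rpl10, whose protein joins late and completes the subunit, had 756 FPKM. At the other end, Rpl30 had 19.9, Rpl26 had 20.2 and Rpl35a had 20.5 FPKM. Rpl24 had only 0.516 FPKM (2 to 16 reads per library) and did not pass the filter. These levels rest on the gene lengths in the deposited FPKM, which ran from 404 to 2987 bases in this class. Rpl30 had 2412 and Rpl35a 2858 bases, while Rpl26 had 657 and Rpl24 had 677. The part of gene length in these low levels was not tested, nor that of reads that match several places.

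Of 42 tested large subunit genes outside the stalk, 0 were called; 32 changes were positive and 10 negative (median 0.08), against 15 and 27 after quantile normalization and 1 and 41 after scaling outside milk proteins. Rpl13a (chr7:45125558-45128761), whose protein can leave the ribosome to repress translation of inflammatory mRNAs, had the largest change of the class. Its FPKM was 320.6, 451.3, 285.2, 341.3 and 278.3 in PBS glands and 530.2, 374.8, 454.1, 341.0 and 341.0 in LPS glands. LPS glands 4 and 5 stood at the level of PBS gland 4, and the change of 0.28 ± 0.16 did not pass the test (limma adjusted p = 0.412). Rpl5 and Rpl11 encode the proteins that, with 5S rRNA, bind MDM2 when ribosome assembly is disturbed. Rpl5 had 214 ± 36 FPKM in PBS and 232 ± 38 in LPS glands, and Rpl11 had 301 ± 37 and 318 ± 52. Rpl3, whose protein reaches toward the catalytic centre, had 173 ± 21 and 170 ± 21. Rpl37 had the lowest change among core genes of the large subunit, -0.11 ± 0.15 (limma adjusted p = 0.792), with 247 ± 35 and 231 ± 52 FPKM.

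In the small subunit 31 of 31 genes were tested and 0 were called; 26 changes were positive and 5 negative (median 0.10), against 13 and 18 after quantile normalization and 2 and 29 after scaling outside milk proteins. Rps20 (chr4:3831334-3835665), whose protein lies in the head of the subunit, had FPKM of 69.0, 97.1, 67.7, 75.03 and 66.8 in PBS glands. In LPS glands it had 118.5, 94.5, 96.4, 80.4 and 81.3. Each of the 5 LPS values lay above 4 of the PBS values, and PBS gland 2 lay above all LPS glands except gland 1. The change was 0.32 ± 0.13, a fold between 1.03 and 1.52 at 95%, with an unadjusted p of 0.0283 and a limma adjusted p of 0.228. Without PBS gland 2 the adjusted p was 0.0738, the lowest for Rps20 over all alternatives. Rps15a followed with 0.24 ± 0.17 (limma adjusted p = 0.538), from 37.1 ± 7.1 to 44.5 ± 10.95 FPKM.

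Rps6 encodes the protein phosphorylated by S6 kinase, a standard readout of mTOR signalling. It had 466.7, 521.2, 415.5, 527.9 and 390.8 FPKM in PBS glands and 538.7, 418.7, 514.4, 435.5 and 414.6 in LPS glands. Both group means were 464 FPKM, 4 of the 5 LPS glands lay inside the PBS range, and the interval of the change was -0.26 to 0.26. Rpsa, first described as a laminin receptor, had 349.4, 422.9, 311.2, 382.0 and 284.0 in PBS and 452.1, 360.7, 434.6, 357.8 and 331.4 in LPS glands (0.15 ± 0.13, limma adjusted p = 0.638). Rps3, whose protein forms part of the mRNA entry channel, had 169 ± 31 and 181 ± 35 FPKM. Rps19, mutated in Diamond-Blackfan anaemia, had 79.8 ± 19.7 and 91.7 ± 21.7. The highest FPKM of the class were those of Rps12 (901 ± 175 and 978 ± 208) and Rps27 (755 ± 158 and 736 ± 171). Their lengths in the FPKM were short, 476 and 255 bases. In reads Rps12 had 5443 to 10666 per library and Rps27 2365 to 4888, against 8459 to 15876 for Rpsa, so the order depends on these lengths. Rps26, whose protein contacts mRNA at the exit channel, had the lowest change of the class, -0.12 ± 0.11 (limma adjusted p = 0.670), with 653 ± 65 and 602 ± 71 FPKM.

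The core genes moved together from gland to gland. For 76 tested core genes, log2(FPKM + 1) was set against the mean of the PBS glands. The median deviation was 0.002, 0.28, -0.15, 0.11 and -0.24 in PBS glands 1 to 5, and 0.45, 0.03, 0.17, -0.05 and -0.16 in LPS glands 1 to 5. High and low glands thus occurred in both groups. The same median over all tested genes was -0.08, 0.14, 0.03, 0.01 and -0.11 in PBS glands 1 to 5. In LPS glands 1 to 5 it was 0.003, 0.13, 0.13, 0.05 and -0.05. Its sign was that of the core median in all glands but PBS glands 1 and 3 and LPS gland 4. In LPS gland 1, where the core median was 0.45, it was near 0. How far the movement was shared with other genes was not tested. Of the 87 tested rows, 71 had their highest value in LPS gland 1 and 50 their lowest in PBS gland 5. The matching shares of all tested genes are not given here. The median SD within groups was 0.25 for the core genes, against 0.20 for all tested genes and 0.21 for the 309 other genes with a mean FPKM of at least 100. Milk protein genes took 49.9, 40.4, 38.6, 46.8 and 49.5% of summed FPKM in PBS glands 1 to 5, and 34.9, 32.2, 32.6, 37.2 and 44.3% in LPS glands 1 to 5. PBS gland 3 had the lowest milk share of the PBS glands with a core median of -0.15, and LPS gland 2 the lowest of all with 0.03. PBS gland 1 had the highest of all with 0.002. PBS gland 5, at 49.5%, had a core median of -0.24, and LPS gland 5, the highest of the LPS glands, had -0.16. FPKM are shares of a library, and the part of milk transcripts in these differences between glands was not tested.

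**Figure D3:**
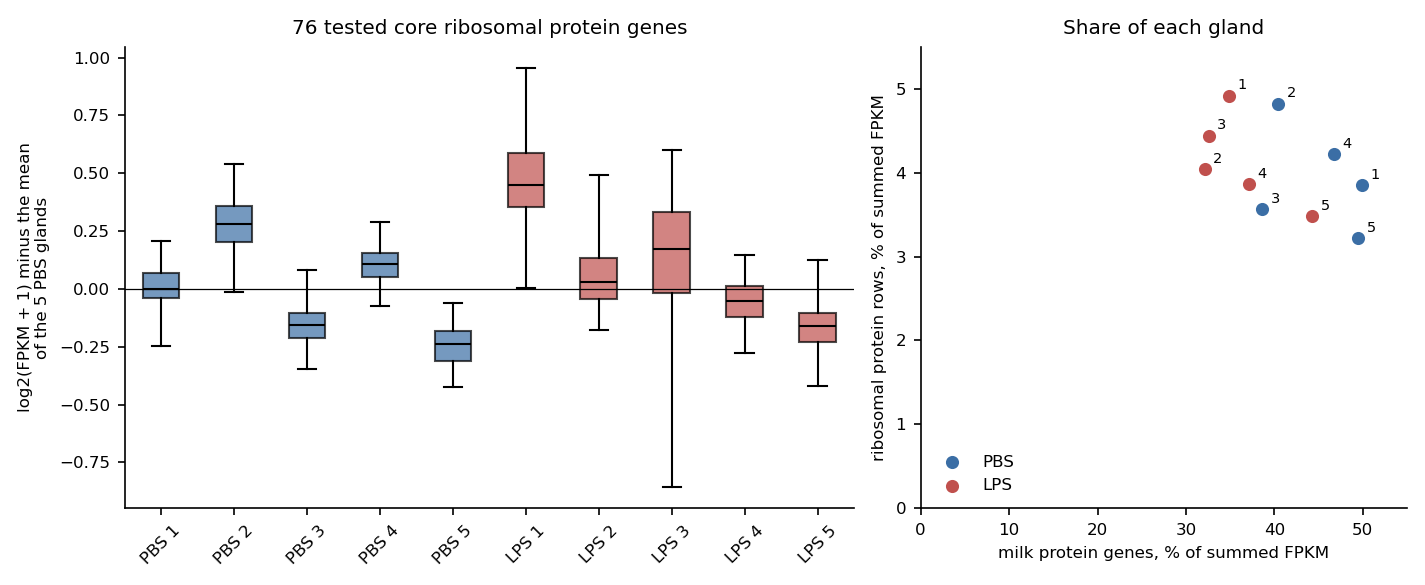
Left, deviation of 76 core genes in each gland from the mean of the 5 PBS glands on log2(FPKM + 1); boxes span the quartiles with the median, and whiskers reach the lowest and the highest gene. Right, share of summed FPKM in the 92 ribosomal protein rows against the share in 8 milk protein genes, 1 point per gland with its number. LPS gland 1 and PBS gland 2 stand high in both plots, and PBS gland 5 and LPS gland 5 stand low.

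To look for genes that departed from this shared movement, FPKM were also scaled to the geometric mean of the tested core genes. Under this scaling 0 of the 87 rows were called, and 3 had an unadjusted p below 0.05. These were Rps20 (0.24, limma adjusted p = 0.467) and, lower, the retrocopies Rpl37rt (-0.27) and Rpl6l (-0.30). Among all genes 89 were then called higher and 48 lower.

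In LPS gland 3 the ribosomal protein transcripts did not move as a block. Against the mean of the other LPS glands its deviations had an interquartile range of 0.30 on the log2 scale, while the same measure was 0.14 to 0.25 in the other 9 glands. The genes named here were chosen after their values were seen. Rps29, which encodes a zinc-binding protein of the small subunit head, had 353.4, 256.5, 201.4 and 146.4 FPKM in LPS glands 1, 2, 4 and 5 and 101.3 in LPS gland 3, below all 9 other glands (deviation -1.16). Rpl23a had 19.1 FPKM there against 31.4 to 51.3 in the other LPS glands (-1.01). Rpl35 had 19.5 against 31.99 to 64.5 (-0.99), and Rps28 had 96.3 against 122.9 to 223.3 (-0.73). Rps4l, a pseudogene row, and Rpl26 were the other 2 rows lower by more than 0.5. At the upper end of the same gland, Rpl35a (0.49), Rps24 (0.47), Rps15a (0.45) and Rps12 (0.43) lay above all other LPS glands. Among all tested genes the interquartile range in LPS gland 3 was 0.29, within the 0.23 to 0.37 of the other glands. Leaving out LPS gland 3 gave 0 calls among the members as well, with a median change of 0.07. LPS gland 3 was also the LPS gland with most B and T cell marker transcripts, and the part of those cells in its pattern was not tested.

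**Figure D4:**
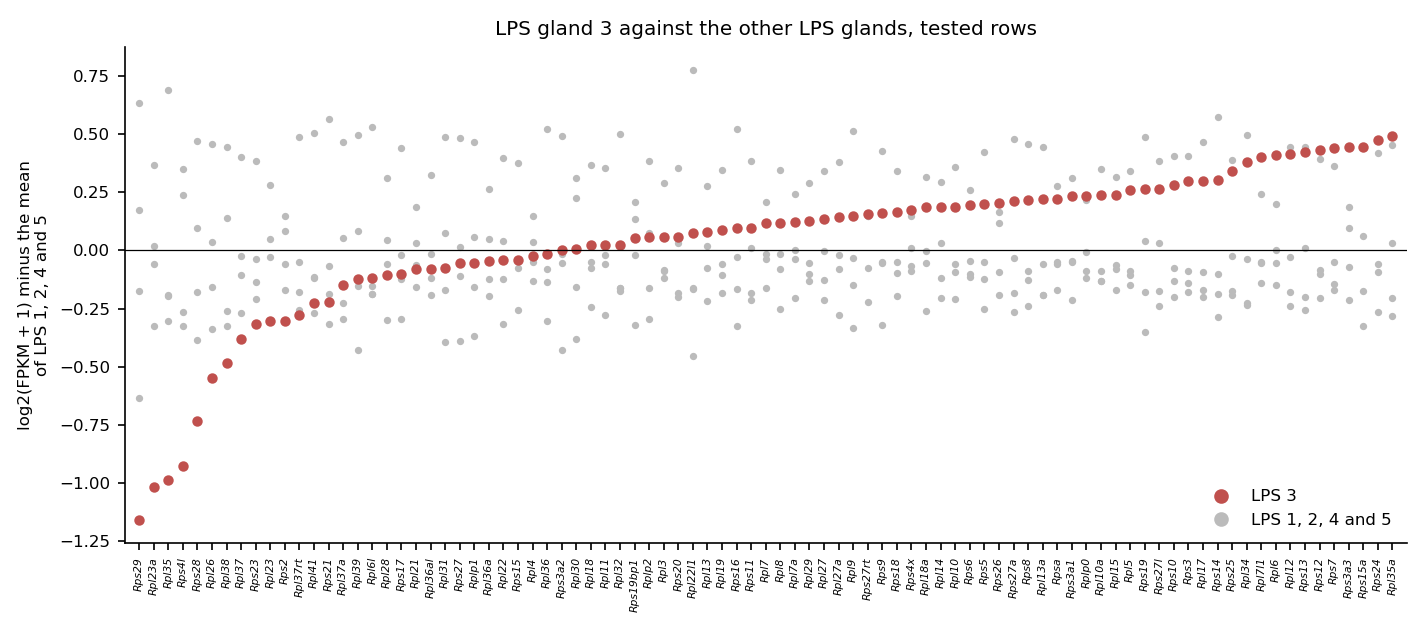
Each of the 87 tested rows in LPS gland 3 (red) and in LPS glands 1, 2, 4 and 5 (grey), as log2(FPKM + 1) minus the mean of those 4 glands, ordered by the value in gland 3. The red points reach from -1.16 at Rps29 to 0.49 at Rpl35a and leave the grey points at both ends.

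Several core proteins have a paralogue that can take their place, often with a restricted pattern of tissues. Rpl22l1 exceeded its parent in all 10 glands on the FPKM scale. The FPKM of Rpl22l1 was 163% ± 19.8 of Rpl22 in PBS glands and 145% ± 28.7 in LPS glands, and from 111 to 184% over all glands. The lengths in the FPKM were 489 bases for Rpl22l1 and 2051 for Rpl22. In reads Rpl22l1 had 529 to 1479 per library and Rpl22 had 1466 to 3389, so the order depends on these lengths. Rpl22l1 itself had 96.9 ± 27.2 FPKM in PBS and 98.5 ± 36.2 in LPS glands, a change of -0.003 ± 0.22 (limma adjusted p = 0.997). Rps27l, a p53 target in other cells, was at 35.5% ± 3.4 of Rps27 in PBS and 38.7% ± 4.8 in LPS glands. For this pair the lengths were 575 bases for Rps27l and 255 for Rps27, with 1959 to 3795 and 2365 to 4888 reads per library. Rpl36al stood at 75.8% ± 3.9 of Rpl36a in PBS glands and 71.3% ± 2.3 in LPS glands, with a change of its own of -0.14 ± 0.11 (limma adjusted p = 0.593). Here too the lengths differed, 1276 bases for Rpl36al and 812 for Rpl36a, with 1763 to 2842 and 1534 to 2424 reads per library.

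Rpl7l1 (chr17:46773907-46782672), which acts in assembly of the large subunit, had the second largest change of the 87 rows. Its FPKM was 18.9, 26.3, 20.7, 20.4 and 15.5 in PBS glands and 22.6, 27.9, 31.3, 21.2 and 22.6 in LPS glands. All LPS glands lay above 4 of the PBS glands, while PBS gland 2 lay above 3 LPS glands. The change was 0.29 ± 0.14, with a limma adjusted p of 0.325. It stood at 6.93% ± 1.00 of Rpl7 in PBS and 8.14% ± 1.39 in LPS glands. In all 4 pairs the percentages of the groups overlapped. Of the paralogues known from testis or muscle, Rpl39l had 0.307 ± 0.219 and 0.740 ± 0.495 FPKM (0 to 17 reads per library) and Rpl3l had 0 to 7 reads per library. Rpl10l was listed at 0 in all 10 libraries. Their parents Rpl39, Rpl3 and Rpl10 had mean FPKM above 100.

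**Figure D5:**
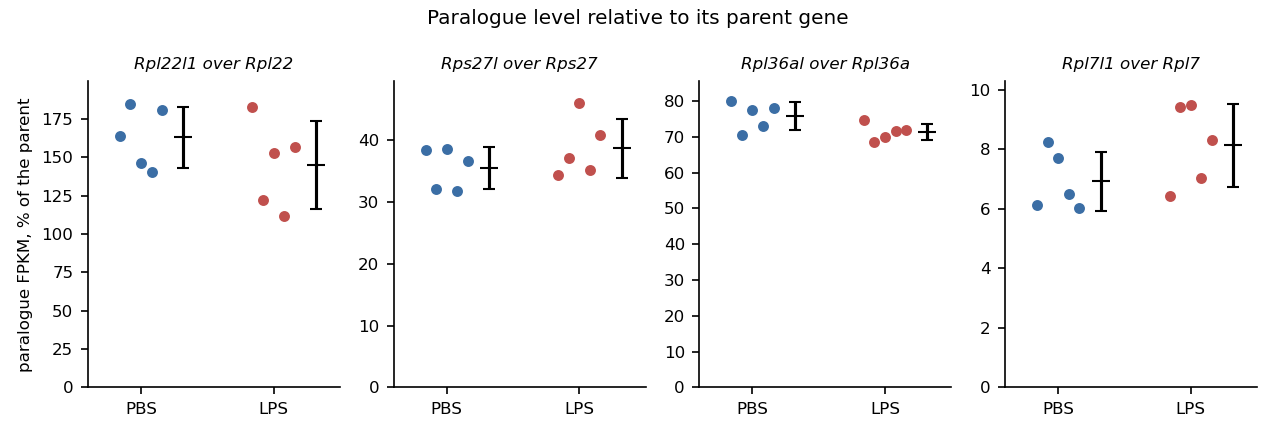
FPKM of 4 paralogues as a percentage of the parent gene's FPKM in the same gland, 5 PBS (blue) and 5 LPS (red) glands, each point 1 gland, with the mean and SD; each panel has its own axis from 0. Rpl22l1 lies above 100% in every gland, Rpl7l1 below 10%, and the groups overlap in all 4 panels. The percentages depend on the gene lengths used in the FPKM.

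The 7 retrocopy and pseudogene rows were low, with 0 of 6 tested called. Rps3a2 had 30.0 ± 4.1 FPKM in PBS and 31.5 ± 7.6 in LPS glands, and each of the other 6 had a mean under 10 FPKM. Rpl6l (1.87 ± 0.54 and 1.44 ± 0.60) and Rpl37rt (7.25 ± 0.52 and 6.35 ± 1.80) had the 2 lowest changes of the 87 rows, -0.25 ± 0.17 and -0.19 ± 0.14. In both rows LPS gland 1 lay above 4 of the 5 PBS glands or more, and the other 4 LPS glands lay below every PBS gland. Rps19bp1, the row that is no ribosomal protein, had 19.5 ± 3.0 and 21.4 ± 3.0 FPKM.

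Near-identical copies make single levels uncertain, since how reads that match several places were counted is not given in the sources used here. A further 250 rows carry a ribosomal protein symbol with "-ps"; 93 were listed at 0 in all libraries, and together they held 1.63 to 1.998% of the members' summed FPKM. The highest single row was Rps2-ps10, with 212.8 ± 25.3 FPKM in PBS and 262.9 ± 41.1 in LPS glands. Its change was 0.30 ± 0.12 (unadjusted p = 0.0324, limma adjusted p = 0.242). Rps2 itself had 190 ± 8 and 210 ± 27 FPKM, so the levels of Rps2 and of this copy should be read as a pair.

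Genes that work with the ribosome were also compared, in lists that hold other parts of the translation machinery. Over all genes 3.23% were called in either direction. The list medians below are as deposited, and each was negative after scaling outside milk proteins. Of the other proteins of the ribosome, neither Fau nor Rack1 was called. Fau had 358 ± 60 and 358 ± 80 FPKM, and Rack1, the scaffold for kinases on the small subunit, had 142 ± 21 and 149 ± 28. Of 18 elongation factors and other genes whose mRNAs carry a TOP motif, 0 were called by limma (2 unadjusted) or edgeR and 2 by DESeq2 (Eif3f and Hnrnpa1), with a median of 0.11. Eef1a1, which brings aminoacyl-tRNA to the ribosome, had 2929 ± 251 and 3318 ± 381 FPKM, and Tpt1 had 1442 ± 136 and 1410 ± 188. Of 33 genes of ribosome biogenesis 0 were called and 0 had an unadjusted p below 0.05, with a median of 0.02; Nhp2 of the pseudouridylation complexes had 42.4 ± 8.5 and 50.3 ± 8.4 FPKM. In the mTOR and stress-kinase list 0 of 20 were called by limma (3 unadjusted), 1 by edgeR (Eif2ak3) and 2 by DESeq2 (Eif2ak2 and Eif2ak3). Changes in this list ran from -0.29 to 0.74, with a median of -0.04. There Eif4ebp1, the translation repressor controlled by mTOR, had 127 ± 11 and 110 ± 24 FPKM, and Atf4 had 127 ± 9 and 129 ± 16.

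Among 24 initiation factors 1 was called, Eif6, and it was higher in LPS glands. EIF6 keeps free large subunits from joining small ones. It had 35.7, 39.6, 38.6, 30.8 and 36.9 FPKM in PBS glands and 46.4, 51.3, 46.0, 42.0 and 50.3 in LPS glands. Every LPS gland lay above every PBS gland, and Eif6 rose by 0.37 ± 0.09 (limma adjusted p = 0.0446). The call was lost in 15 of 22 alternatives, where adjusted p ranged from 0.0081 to 0.611 over all 22. It was kept without PBS gland 2 or LPS gland 4 and lost without any other single gland; edgeR gave an adjusted p of 0.0984 and DESeq2 of 0.0557.

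Mitochondrial ribosomal proteins form a separate ribosome for the proteins encoded in mitochondrial DNA. Of 76 tested, limma called 1, Mrpl35, a protein of its large subunit, and edgeR and DESeq2 each called 2, Mrpl35 and Mrpl51. In the limma fit 67 changes were positive and 9 negative (median 0.12), against 22 and 54 after scaling outside milk proteins. Mrpl35 had 3.51, 4.16, 3.31, 3.66 and 3.01 FPKM in PBS glands and 4.82, 6.04, 5.24, 4.92 and 4.605 in LPS glands. The groups did not overlap, and the transcript rose by 0.44 ± 0.10 (limma adjusted p = 0.0374, edgeR adjusted p = 0.0169). The call was lost in 10 of 21 alternatives (adjusted p from 0.000575 to 0.273). It was kept without PBS gland 2, LPS gland 1 or LPS gland 5 and lost without any other single gland.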

How the data were processed

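RNA-seq covered 5 glands with LPS and 5 with PBS. The tools STAR 2.5, HTSeq 0.6.1 and DESeq2 and the build mm10 are named per the submitters' processing notes; settings, annotation release and the handling of reads with several matches are not given in the sources used here. The table used here was deposited as FPKM for every gene, made by the authors from counts, gene length and library total; 12216 of its 35275 rows were at 0 in all libraries. A second table of 908 genes, none of them a member, holds whole read counts per the file headers. Its normalized signal per library, log2 fold changes and adjusted p-values are the authors' own, deposited values, and were not used in the tests. Its counts, FPKM and gene lengths gave the depth of each library and a check of the first table. Gene names from it filled in symbols that were missing. FPKM of the shared genes differed by at most 2.9e-08 (relative).

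A gene entered the test when 5 or more of the 10 libraries had an FPKM of 1 or higher, and was tested with limma 3.58.1 (trend, two-sided, R 4.3.3) on log2(FPKM + 1), with Benjamini-Hochberg adjustment over all 11414 genes and a threshold of 0.05. The plan allowed for counts of all genes; since only FPKM covered all genes, limma stayed the reported test. Whole reads were recovered for all 23059 genes above 0 (tolerance 0.002 reads) and gave 99.98 to 99.99% of each library's depth. Multiples of a fitting length fit too, and the smallest was taken, so the reads of low rows can be understated. The lengths found equalled 906 of the 908 listed ones. On these reads edgeR 4.0.16 and DESeq2 1.42.0 were run as alternatives added after the files were seen, as was scaling to the core ribosomal protein genes. Intervals cover the spread between libraries. Duplicates made by PCR were not separable from original molecules, and strand is not stated, so overlapping antisense genes cannot be separated.

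Other settings tried were pseudocounts of 0.1 and 5, no filter or a mean FPKM of at least 5, median-of-ratios and quantile scaling, scaling to the sum outside 8 milk protein genes, library weights, a replicate block and leaving out each library. Named were the stalk genes and Rpsa, called members, the 5 highest and 5 lowest changes, the 5 highest levels, the paralogue pairs, Rpl5, Rpl11, Rpl13a, Rps3, Rps6 and Rps19, and, of each other list, up to 3 called genes or the 2 most abundant. The members and lists were chosen with earlier results of these data known. Further genes named in the text were picked after their values were seen. Start windows came from RefSeq (GRCm38.p6) and gene coordinates from GENCODE (GRCm38); regions of ribosomal protein genes are whole genes, so counts cover exons without separating UTRs. The procedure was tested on simulated data with known changes.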

Additional observations from a re-analysis of the deposited data

Results flagged for a closer look

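Within-group values of the named genes were examined for a single gland that stood apart from its group by Dixon's test for 5 values (critical value 0.71). Among 102 groups of 5 values 9 stood out; chance flags about 1 in 20 groups, and genes of 1 gland are not independent. In 4 members PBS gland 2 was far above the other PBS glands. Rplp1 had 942.0 FPKM there against 617.2 to 698.6, and Rps20 had 97.1 against 66.8 to 75.03. Rps29 had 264.8 against 154.5 to 174.1, and Rpl38 had 255.5 against 149.3 to 173.0. Among LPS glands, gland 1 stood apart in 3 members. Rpl41 had 1441 FPKM there against 843.2 to 939.2, Rpl37rt had 9.48 against 5.17 to 6.22, and Rpl6l had 2.51 against 1.13 to 1.24. Eif4ebp1, the translation repressor controlled by mTOR, had 152.6 FPKM in LPS gland 1 against 89.8 to 103.4. Polr1d, a subunit of RNA polymerases I and III, had 38.8 FPKM in PBS gland 5 against 42.1 to 42.9 in the other PBS glands.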

How the results depend on the processing

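Over 22 alternatives the count of ribosomal protein rows called was 0 in each direction, including every fit that left out 1 gland. The median change of the members ran from 0.005 (without LPS gland 1) to 0.157 (without PBS gland 2) when 1 gland was left out, and from -0.13 (scaling outside milk proteins) to 0.08 under the other settings. For the 29 tested named members, 72 of 637 values under alternatives had the opposite sign, and 0 were called. The difference in the members' share of summed FPKM, 0.21 percentage points, ran from 0.022 to 0.44 points when 1 gland was left out, and was -0.68 points outside the milk protein genes. Of the 213 tested genes in the other translation lists, 2 were called. That count was 0 with no filter and 0 with scaling to the core genes, 1 with a mean FPKM of at least 5, 1 with median-of-ratios scaling, 1 with scaling outside milk proteins, 5 with library weights and 6 with DESeq2. It ran from 0 to 3 when 1 gland was left out. Equal replicate numbers correlated at 0.48, 0.36, 0.099, 0.10 and 0.49 in their deviations from the group means, and not every gland correlated best with its own number, so the numbers were not taken to pair the glands. With a replicate block 962 genes were called higher and 267 lower, 0 of them members, with a members' median of 0.08 and a lowest adjusted p of 0.0855 (Rpl7l1); 9 genes of the other lists were then called (Eif6, Eif3f, Hnrnpa1, Eif2ak2, Sesn2, Mrpl16, Mrpl19, Mrpl35 and Mrpl51). Over all genes, the fewest calls in all without the block were 101 higher and 25 lower (no filter) and the most were 546 and 300 (DESeq2). Some low rows rest on few reads: Rpl24, Rpl3l, Rpl39l and Rps12l1 had at most 17 recovered reads per library. The part of reads that match several places in the low count of Rpl24 was not tested.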
